A study of Rattus norvegicus and Mus musculus with 251 samples.

Results

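Arc and Npas4 are a pair of immediate early genes, genes whose transcripts appear within minutes of strong synaptic input without new protein synthesis. Many early genes are induced in several cell types, whereas these 2 are known for their tie to neurons. Calcium entering through NMDA receptors and voltage-gated channels activates kinases and the transcription factors CREB, SRF and MEF2, which drive both genes. Their roles then part. Arc encodes a protein that works at the synapse, where it promotes the endocytosis of AMPA receptors, and its RNA is carried into dendrites. Npas4 encodes a transcription factor of the basic helix-loop-helix PAS family, which pairs with ARNT or ARNT2 and is known for regulating inhibitory synapses and Bdnf.

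Both genes were taken by symbol from the mouse table of raw read counts, 2 of 46078 genes, and followed across prefrontal cortex (PFC) and nucleus accumbens (NAc). The mice were C57BL/6J of both sexes, which drank either saline (Sal) or a morphine solution. Chronic mor names mice on morphine, and Mor + 24h and Mor + 2W are read here as 24 h and 2 weeks after morphine. PFC had 6 saline, 8 chronic, 9 24 h and 7 2-week libraries, and NAc had 7, 8, 9 and 8. The age, the dose and the duration of drinking are not given in the sources used here. RNA came from punches of 0.5 mm of brain sections, so every library is bulk tissue. The labels call the cell type neuron, yet the 5 oligodendrocyte markers summed to between 2869 and 12811 on the counts-per-million scale (CPM), so other cells were present. The labels do not say that libraries of a group came from separate animals, and p-values measure only the spread between these samples.

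Arc (ENSMUSG00000022602) lies on the minus strand of chromosome 15, from 74669083 to 74672570 in the build GRCm38, and Npas4 (ENSMUSG00000045903) on the minus strand of chromosome 19, from 4984355 to 4990316. The annotation gives Arc 2 protein-coding transcripts of 3 exons each. For Npas4 it gives 1 protein-coding transcript of 8 exons, 1 with a retained intron and 1 subject to nonsense-mediated decay. The coding sequence has 396 codons in Arc and 802 in Npas4. No other annotated gene overlaps either of them. The first 60 coding bases, read from the GENCODE M21 transcripts, are shown to fix which open reading frame is meant, with the start codon in capitals.
Arc: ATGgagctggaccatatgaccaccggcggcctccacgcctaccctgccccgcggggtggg
Npas4: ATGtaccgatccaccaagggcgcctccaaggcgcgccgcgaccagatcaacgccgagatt

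Libraries held 22387525 to 43963295 counts in genes, except a 2-week female PFC library (number 10) with 5182601, in which 21.1% of reads were unaligned. Both libraries numbered 27, labelled female and chronic, carried reads of the Y-linked Ddx3y (52.5 CPM in PFC, 77.8 CPM in NAc), whereas the other female libraries stayed at or below 0.807 CPM. They went against their label and are kept as labelled. A few genes, Gm10260, Gm10263 and Gm10036, were either high or low in a library and followed the groups: all chronic libraries were high and all 2-week libraries low in both regions. Saline males were high and saline females low, and at 24 h the 4 females and 3 of 5 males were high. The 6 cortical excitatory neuron markers summed to 1715 to 4255 CPM in PFC and the 7 striatal projection neuron markers to 207 to 6199 CPM in NAc. The 4 lowest NAc libraries were saline numbers 6 and 2, chronic number 25 and 24 h number 23, at 207, 592, 264 and 698 CPM. No marker of the 9 cell type lists was called against saline by edgeR in either region (23 of 294 tests had an unadjusted p under 0.05). DESeq2 called 2, the cortical excitatory markers Slc17a7 (log2 fold change 2.96, adjusted p = 0.0102) and Neurod2 (2.71, adjusted p = 0.0449), both higher in NAc at 24 h, where the 6 markers of that list had a median log2 fold change of 2.02 by edgeR. Their sum in NAc was 657 CPM in 24 h male number 24 and at most 90.7 CPM in the other libraries. The choroid plexus markers summed to 3426 CPM in chronic male number 31 of PFC and to at most 783 CPM elsewhere.

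In saline PFC, Arc was among the most abundant transcripts. Its level was lowest at 706 CPM, had a median of 1134 CPM and reached 1452 CPM (mean 1088 ± 281, SD, n = 6). Per length it reached a median of 371 RPKM (CPM divided by the exon length in kilobases) and a median rank of 54.5 among 21596 protein-coding genes. Under chronic morphine Arc ranged from 156.7 to 341 CPM with a median of 224 CPM (mean 224 ± 62.8, SD, n = 8), and its median rank was 552.5. All 8 chronic libraries lay below the lowest saline library, so the groups did not overlap. The share of all genes that separate these groups was not counted. At 24 h Arc ranged from 107.02 to 810.3 CPM with a median of 299.9 CPM (mean 378 ± 253, SD, n = 9), and 8 of the 9 libraries lay below the lowest saline library. At 2 weeks it ranged from 847 to 1548 CPM with a median of 1199.9 CPM (mean 1142 ± 256, SD, n = 7), a range that overlapped saline, and its median rank of 56 was next to that of saline.

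**Figure D1:**
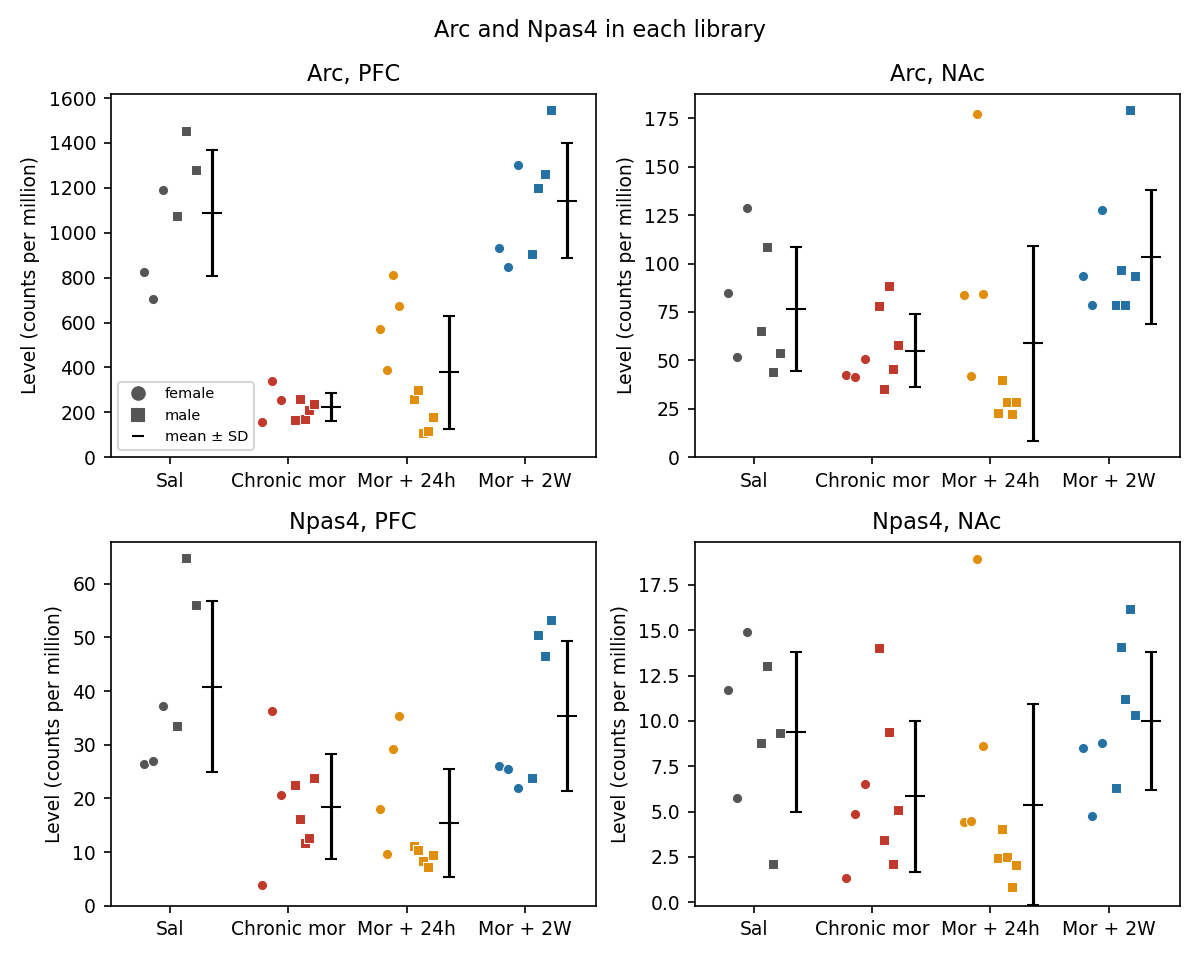
Level of Arc and Npas4 in CPM (linear axes) in each PFC and NAc library, by treatment. Circles are female and squares male libraries, and black bars give the mean ± SD of both sexes. The 8 chronic PFC libraries sit between 156.7 and 341 CPM of Arc, all under the saline libraries.

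Averaged over the sexes, Arc fell to 21.4% of its saline level in PFC under chronic morphine (log2 fold change -2.23 ± 0.22, SE, edgeR adjusted p = 2.44e-07), 6th by p among 17966 genes tested. At 24 h it stood at 31.99% of saline (log2 fold change -1.64 ± 0.21, SE, edgeR adjusted p = 6.33e-05), 2nd by p. At 2 weeks the log2 fold change was 0.07 ± 0.22 (SE, edgeR adjusted p = 0.977). Genes called lower, at an adjusted p under 0.05, made up 0.306% of those tested under chronic morphine, 0.0724% at 24 h and 0.00557% at 2 weeks. Against chronic morphine the 2-week libraries held 492% as much Arc (log2 difference 2.30 ± 0.22, SE, edgeR adjusted p = 1.64e-07), where 0.507% of genes were called higher. Against 24 h they held 329% as much (1.72 ± 0.20, SE, edgeR adjusted p = 4.8e-05), the smallest p of that comparison, where 0.0835% of genes were called higher. The 24 h and chronic libraries did not differ past the threshold (0.58 ± 0.20, SE, edgeR adjusted p = 0.735). All chronic libraries were high and all 2-week libraries low in Gm10260, Gm10263 and Gm10036. Stage and this high or low state therefore cannot be told apart between those groups. The same holds for 2-week males against saline males, which were all high. At 24 h the 4 females and 3 of 5 males were high, so their comparison with 2 weeks is mixed with state too. In bulk tissue, fewer cells that express Arc and less Arc RNA per cell cannot be told apart.

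Both falls of Arc were called in all 30 fits that left out 1 library, with chronic log2 fold changes between -2.37 and -2.10 and 24 h values between -1.76 and -1.52. Without chronic number 31, the library with the high choroid plexus sum, the chronic value of Arc was -2.23 (edgeR adjusted p = 9.51e-07). With the high or low state of Gm10260, Gm10263 and Gm10036 as a covariate, the chronic value was -2.48 (edgeR adjusted p = 2.09e-05) and the 24 h value -1.73 (edgeR adjusted p = 0.0039). In males, chronic and saline libraries were all in the high state, and Arc differed there by -2.61 ± 0.29 (SE, log2, edgeR adjusted p = 1.56e-06, 0.15% of genes called lower). The 3 chronic libraries labelled female included number 27, which carried Y-linked reads. Chronic females differed from the 3 saline females by -1.84 ± 0.33 (SE, log2, edgeR adjusted p = 0.0102, 0.111% of genes called lower). That call in females was lost without chronic number 25, chronic number 27 or saline number 3, with values between -2.13 and -1.60 over all libraries left out. Saline females were all in the low state and chronic females all in the high state, so stage and state cannot be told apart there.

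Npas4 was a much scarcer transcript. In saline PFC it ranged from 26.3 to 64.8 CPM with a median of 35.4 CPM (mean 40.8 ± 15.9, SD, n = 6), a median rank of 5145 per length. Per length, Arc stood at a median of 38.9 times the level of Npas4 in the saline libraries of PFC. Under chronic morphine Npas4 ranged from 3.94 to 36.4 CPM with a median of 18.4 CPM (mean 18.5 ± 9.77, SD, n = 8), and 7 of 8 libraries lay below the lowest saline library. The exception was chronic female number 26, at 36.4 CPM. At 24 h it ranged from 7.26 to 35.4 CPM with a median of 10.4 CPM (mean 15.4 ± 10.2, SD, n = 9), and 7 of 9 libraries lay below saline. At 2 weeks it ranged from 22.02 to 53.2 CPM with a median of 26.1 CPM (mean 35.4 ± 13.97, SD, n = 7), and 4 of 7 libraries lay below the lowest saline library and 0 above the highest.

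Averaged over the sexes, none of the PFC stage effects on Npas4 passed the threshold over all genes. The log2 fold change was -1.07 ± 0.31 under chronic morphine (SE, edgeR adjusted p = 0.193), -1.42 ± 0.30 at 24 h (SE, edgeR adjusted p = 0.0568) and -0.26 ± 0.32 at 2 weeks (SE, edgeR adjusted p = 0.947). Unadjusted, the chronic p was 0.00186 and the 24 h p 4.74e-05, the latter 15th of the genes tested. The 24 h difference of Npas4 was called under 5 of 8 other settings, with adjusted p from 0.000129 (cortical marker score as a covariate) to 0.297 (treatment plus sex), and in 6 of 30 fits that left out 1 library. Those 6 left out saline number 5, 24 h number 21, 2-week numbers 10 and 11 and chronic numbers 25 and 26, with adjusted p from 0.00172 to 0.224 over all 30. The chronic difference was called by DESeq2 (adjusted p = 0.043), with the cortical marker score (log2 fold change -1.39, edgeR adjusted p = 0.00219), and without chronic number 26 (log2 fold change -1.42, edgeR adjusted p = 0.0376). That last call was the only 1 among 30 fits that left out 1 library, with edgeR adjusted p up to 0.381. From 24 h to 2 weeks Npas4 differed by 1.16 ± 0.29 (SE, log2, edgeR adjusted p = 0.115).

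At 24 h females and males stood apart. In PFC the 4 females held 570.0, 387, 810.3 and 672 CPM of Arc, and the 5 males 260.5, 299.9, 107.02, 114.4 and 177.04 CPM, so the sexes did not overlap. The share of all genes that separate these libraries by sex was not counted. In saline PFC the 3 males held 1076, 1452 and 1278 CPM and the 3 females 826, 706 and 1192 CPM, which overlapped. Arc in males stood at 15.1% of saline at 24 h (log2 fold change -2.72 ± 0.29, SE, edgeR adjusted p = 3.4e-06), the smallest p of that comparison, in which 0.0946% of genes were called lower. In females the log2 fold change was -0.57 ± 0.30 (SE, edgeR adjusted p = 1), where 0.0111% of genes were called lower. The test of the difference itself, male minus female, gave -2.16 ± 0.42 on the log2 scale (SE, edgeR adjusted p = 0.0746), and 0.0111% of genes were called in it. It was past the threshold by DESeq2 (adjusted p = 0.00135), without the low-count filter (0.0064), with 2 surrogate variables (0.027) and with the cortical marker score (0.0429), and in 4 of 30 fits that left out 1 library (24 h numbers 16, 17 and 19, 2-week number 10). The 2 males in the low state, numbers 16 and 17, had the 260.5 and 299.9 CPM, and the 3 males in the high state had the 3 lowest values. In both regions saline females were all low and 24 h females all high, so stage and state cannot be told apart in females. The difference between the sexes is mixed with state too, and the state covariate was not fitted for it.

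Npas4 followed the same order at 24 h. The females held 17.99, 9.63, 29.2 and 35.4 CPM in PFC and the males 11.1, 10.4, 8.34, 7.26 and 9.39 CPM, so only female number 19 lay within the male range. In males Npas4 was called lower than saline (log2 fold change -2.46 ± 0.41, SE, edgeR adjusted p = 0.00253), also in each of the 30 fits that left out 1 library. In females the log2 fold change was -0.38 ± 0.43 (SE, edgeR adjusted p = 1). The difference between the sexes was -2.08 ± 0.61 (SE, log2, edgeR adjusted p = 0.769). Chronic morphine gave Npas4 log2 fold changes of -1.57 ± 0.41 in males (SE, edgeR adjusted p = 0.204) and -0.57 ± 0.47 in females (SE, edgeR adjusted p = 0.974). Those chronic females again included number 27 with its Y-linked reads. The cortical marker sums of the 24 h libraries overlapped, at 2341 to 3295 CPM in females and 2408 to 3137 CPM in males.

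**Figure D2:**
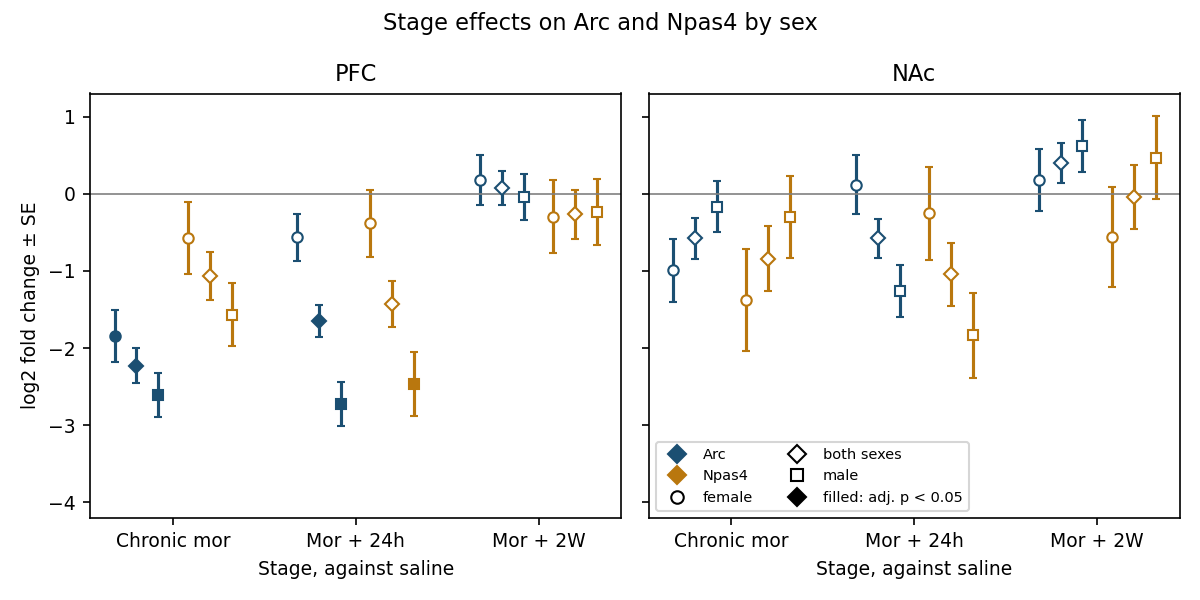
Log2 fold change of Arc and Npas4 against saline, with its SE, at each stage in PFC and NAc, for females, both sexes averaged and males. Filled symbols have an edgeR adjusted p under 0.05. In PFC at 24 h the male values, -2.72 for Arc and -2.46 for Npas4, lie well under the female values of -0.57 and -0.38.

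In NAc both genes were lower than in PFC at every treatment. Saline NAc held 43.8 to 128.8 CPM of Arc with a median of 65.02 CPM (mean 76.7 ± 32.1, SD, n = 7), or 7.22% of the PFC level (log2 difference -3.79 ± 0.29, SE, edgeR adjusted p = 7.95e-16). Npas4 ranged there from 2.09 to 14.9 CPM with a median of 9.31 CPM (mean 9.38 ± 4.40, SD, n = 7), or 24.1% of PFC (log2 difference -2.05 ± 0.41, SE, edgeR adjusted p = 4.84e-05). In both tissues Arc was the more abundant of the 2 per length, but in saline NAc only by a median of 11.3 times. The log2 difference of NAc from PFC for Arc was -2.13 ± 0.25 under chronic morphine, -2.71 ± 0.24 at 24 h and -3.45 ± 0.27 at 2 weeks (SE, edgeR adjusted p = 9.14e-10, 5.96e-14 and 3.29e-15). For Npas4 it was -1.81 ± 0.38, -1.66 ± 0.35 and -1.82 ± 0.39 in the same order (SE, edgeR adjusted p = 0.000118, 0.000105 and 0.000124). A lower level in NAc was common among all 19266 genes of that fit: 18.5% were called lower in saline, 20.4% under chronic morphine, 21.6% at 24 h and 19.4% at 2 weeks.

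Within NAc, Arc under chronic morphine ranged from 35.5 to 88.2 CPM (median 48.3, n = 8), at 24 h from 22.2 to 177.1 CPM (median 39.7, n = 9) and at 2 weeks from 78.5 to 179.3 CPM (median 93.7, n = 8). Below the lowest saline library lay 3 of 8 chronic, 6 of 9 24 h and 0 of 8 2-week libraries, and above the highest lay 0, 1 and 1, so each range overlapped that of saline. The log2 fold change of Arc was -0.58 ± 0.26 under chronic morphine, -0.57 ± 0.25 at 24 h and 0.40 ± 0.26 at 2 weeks (SE, edgeR adjusted p = 0.291, 0.36 and 0.868). Npas4 ranged from 1.33 to 14.04 CPM under chronic morphine (median 4.98, n = 8), from 0.848 to 18.9 CPM at 24 h (median 4.06, n = 9) and from 4.75 to 16.2 CPM at 2 weeks (median 9.54, n = 8), with 1 of 8, 2 of 9 and 0 of 8 libraries below the lowest saline library and 0, 1 and 1 above the highest. Its log2 fold changes were -0.84 ± 0.42, -1.04 ± 0.41 and -0.04 ± 0.42 (SE, edgeR adjusted p = 0.35, 0.304 and 0.989). Without 24 h male number 24, which held the high cortical marker sum, the 24 h values were -0.57 for Arc and -1.02 for Npas4 (edgeR adjusted p = 0.388 and 0.341). Neither gene was called against saline in NAc, where 0.908% of genes were called lower under chronic morphine and 0.0598% at 24 h, and 0.00544% were called in either direction at 2 weeks.

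From chronic morphine to 2 weeks, Arc in NAc was called higher (log2 difference 0.98 ± 0.26, SE, edgeR adjusted p = 0.0464), against 1.05% of genes called higher. The call was made in 11 of 32 fits that left out 1 library, with values from 0.84 to 1.06 and adjusted p from 0.0268 to 0.144. All chronic NAc libraries were in the high state of Gm10260, Gm10263 and Gm10036 and all 2-week ones in the low state. Stage and state cannot be told apart between those groups. Saline males were all high, so the same holds for 2-week against saline males. From 24 h to 2 weeks the difference was 0.97 ± 0.25 for Arc (SE, edgeR adjusted p = 0.117) and 1.0002 ± 0.40 for Npas4 (SE, edgeR adjusted p = 0.404), against 0.0925% of genes called higher. At 24 h the 5 males held 22.9, 39.7, 28.8, 22.2 and 28.4 CPM of Arc and the 4 females 83.9, 42.1, 177.1 and 84.5 CPM, so the sexes did not overlap. The share of all genes that separate these libraries by sex was not counted. PFC and NAc libraries share numbers, and Arc deviations of the same number correlated at r = 0.60 over 30 pairs. The regions may therefore not be independent. The male fold change from saline was -1.26 ± 0.34 on the log2 scale (SE, edgeR adjusted p = 0.285, 0.0218% of genes called lower), and the difference between the sexes -1.38 ± 0.51 (SE, edgeR adjusted p = 0.597, 0.087% of genes called). Striatal marker sums also differed between these libraries, at 698 to 3095 CPM in males and 2685 to 5529 CPM in females, and their part in the difference was not tested beyond the covariate fit. In that fit, with the striatal marker score, the male change of Arc was -1.31 (edgeR adjusted p = 0.0403) and the difference between the sexes -1.17 (edgeR adjusted p = 0.398).

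Whether the stage effect on Arc differed between the regions was tested in 1 fit over all 62 libraries. The effect of chronic morphine was smaller in size in NAc by 1.66 ± 0.36 on the log2 scale (SE, edgeR adjusted p = 0.0629), 7th by p of 19266 genes, of which 0.0311% were called. It was past the threshold by DESeq2 (adjusted p = 0.00448) and in 10 of 62 fits that left out 1 library, and not without both libraries numbered 27 (1.60, edgeR adjusted p = 0.312). The main fit does not pair PFC and NAc libraries of the same number. With the number as a block the difference was also past the threshold, as given in the closing section. The labels do not say that a number is an animal. At 24 h the difference was 1.09 ± 0.34 and at 2 weeks 0.34 ± 0.36 (SE, edgeR adjusted p = 1 and 0.972), with 0.0208% and 0.00519% of genes called. For Npas4 the differences were 0.25 ± 0.54, 0.39 ± 0.53 and 0.23 ± 0.55 (SE), with edgeR adjusted p between 0.991 and 1.

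By median CPM, Arc was ordered as PFC at 2 weeks (1199.9), PFC saline (1134), PFC at 24 h (299.9), PFC under chronic morphine (224), then NAc at 2 weeks (93.7), saline (65.02), chronic morphine (48.3) and 24 h (39.7). All neighbours in that order had overlapping ranges, PFC saline and PFC at 24 h only through 24 h female number 20 at 810.3 CPM. Npas4 was ordered as PFC saline (35.4), PFC at 2 weeks (26.1), PFC chronic (18.4), PFC 24 h (10.4), then NAc at 2 weeks (9.54), saline (9.31), chronic (4.98) and 24 h (4.06), and all neighbours overlapped.

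The ratio of Npas4 to Arc within a library does not depend on library size and asks whether the 2 genes changed unequally. In saline PFC there were 3.11 to 4.46 Npas4 reads per 100 Arc reads, with a median of 3.51 (n = 6). Under chronic morphine the median was 7.49 (n = 8), from 2.52 in female number 25 to 13.7, and 7 of 8 libraries lay above every saline library. The mean log2 ratio was higher by 0.99, or 1.99-fold (two-sided exact permutation p = 0.011, 0.0659 after Benjamini-Hochberg adjustment over 6 comparisons). Without chronic number 25 the difference was 1.21 and the adjusted exact p 0.0035. That was the only 1 of 30 repeats leaving out 1 library to pass the threshold, and the adjusted exact p reached 0.135. At 24 h the PFC median was 4.27 and at 2 weeks 3.00, with adjusted exact p of 0.342 and 0.309. In NAc the medians were 11.99 in saline, 10.1 under chronic morphine, 10.2 at 24 h and 9.06 at 2 weeks, with adjusted exact p between 0.309 and 0.342.

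**Figure D3:**
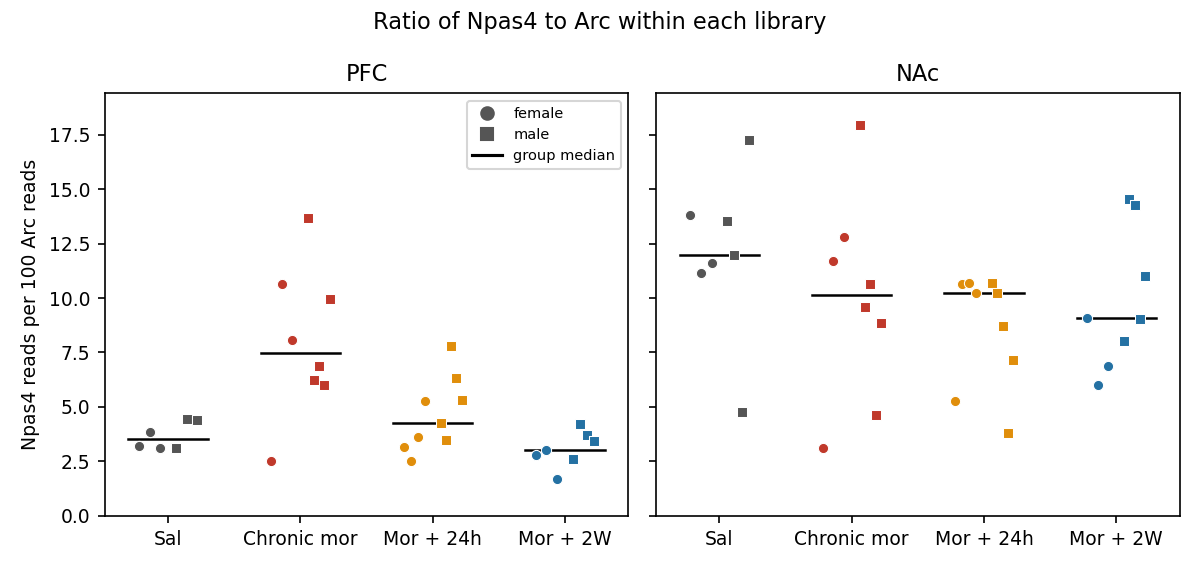
Npas4 reads per 100 Arc reads in each library of PFC and NAc by treatment, with the group median as a line. Saline PFC spans 3.11 to 4.46, chronic PFC 2.52 to 13.7, and the NAc medians run from 9.06 to 11.99.

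Libraries of the same treatment that were high in one gene were also high in the other. Over deviations of log2 CPM from the treatment means, Arc and Npas4 correlated in PFC with Pearson r = 0.73 and Spearman rho = 0.77 (n = 30) and in NAc with r = 0.82 and rho = 0.82 (n = 32). Each permutation p was 1e-05, the smallest that 100000 resamples can give, and also 1e-05 after adjustment over the 2 regions. Without the 2 libraries farthest from the median of Arc, r was 0.74 and 0.75. Within single treatment groups, as a description, r ran from 0.62 (NAc at 2 weeks, n = 8) to 0.92 (NAc at 24 h, n = 9). With sex removed as well, r was 0.66 in PFC and 0.75 in NAc. Both values in a library share its punch and its depth.

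The summed neuron markers moved with both genes among libraries of 1 treatment. In NAc, deviations of the log2 striatal marker sum correlated with those of Arc at r = 0.65 and rho = 0.77, and with those of Npas4 at r = 0.84 and rho = 0.81 (n = 32, permutation p = 3e-05 and 1e-05 for r, 6e-05 and 4e-05 after adjustment over 4 relations). In PFC the cortical marker sum gave r = 0.35 and rho = 0.40 with Arc and r = 0.63 and rho = 0.55 with Npas4 (n = 30, permutation p = 0.031 and 0.00152 for r, 0.031 and 0.00203 after adjustment). Without the 2 libraries farthest from the median of the marker sum, r was 0.75 and 0.79 in NAc and 0.33 and 0.52 in PFC. With the marker score as a covariate, Npas4 was called lower in all 4 comparisons of chronic morphine and 24 h with saline: -1.39 and -1.68 in PFC, -1.26 and -1.38 in NAc (log2, edgeR adjusted p = 0.00219, 0.000129, 0.00583 and 0.0102). Arc in the same fits was at -2.32 and -1.76 in PFC (edgeR adjusted p = 2.79e-08 and 5.41e-06) and at -0.66 and -0.72 in NAc (edgeR adjusted p = 0.0745 and 0.124). All 7 striatal markers had counts in every NAc library and all 6 cortical markers in every PFC library.

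**Figure D4:**
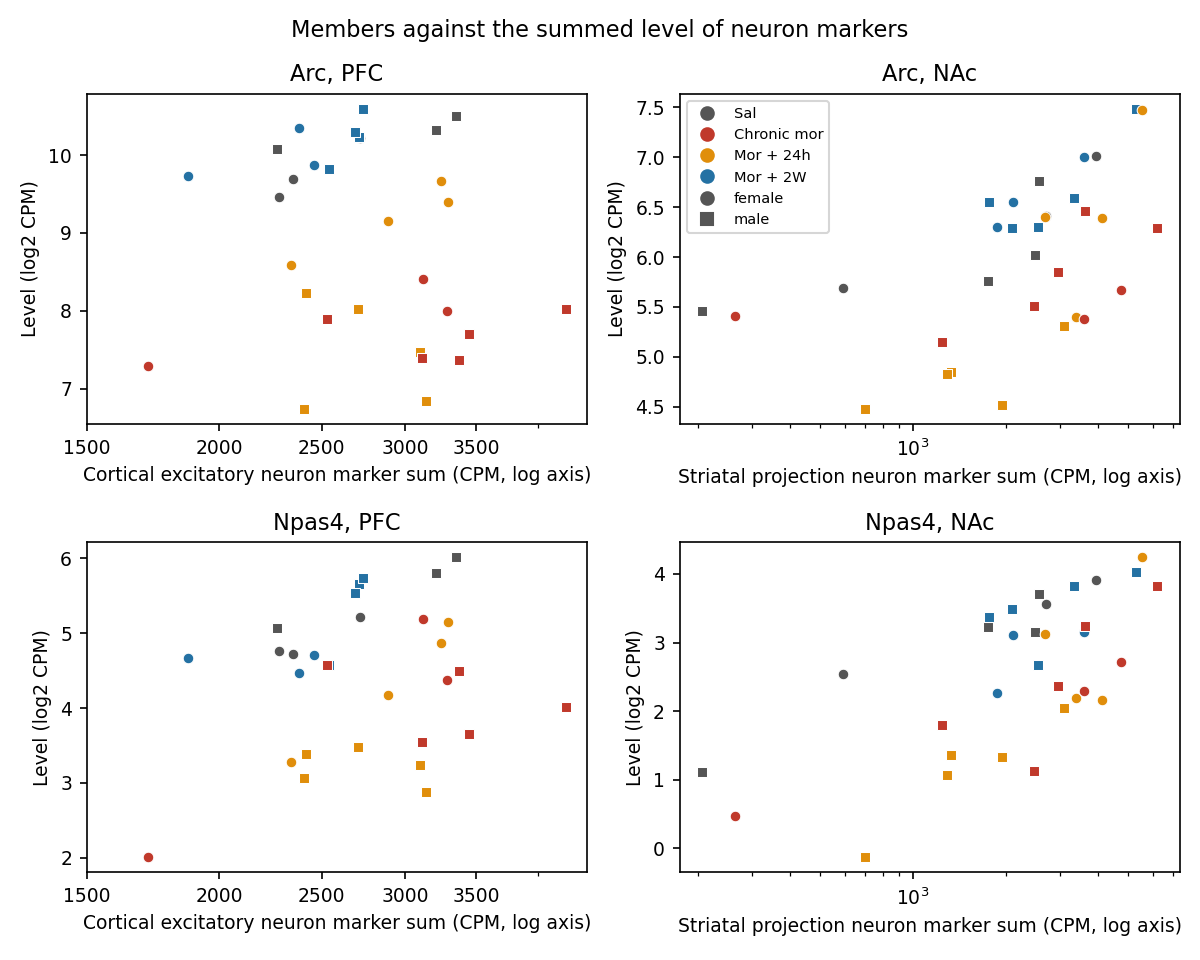
Level of Arc and Npas4 (log2 CPM) against the summed CPM of the cortical excitatory neuron markers in PFC and of the striatal projection neuron markers in NAc (log axes), 1 point per library, coloured by treatment, with circles for females and squares for males. In NAc the sums run from 207 to 6199 CPM, and libraries with low sums tend to have low Npas4.

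Both genes belong to the wider group of immediate early genes, of which 20 others were followed. In PFC under chronic morphine 14 of the 20 were called lower and 0 higher, against 0.306% of all genes called lower, with a median log2 fold change of -1.08 against 0.01 over all genes tested. The smallest p belonged to Fos, an AP-1 subunit, at -2.17 ± 0.19 (SE, edgeR adjusted p = 1.13e-07), Egr2, a zinc finger factor, at -3.35 ± 0.32 (1.65e-07), Nr4a1, an orphan nuclear receptor, at -1.92 ± 0.19 (1.65e-07) and Junb, an AP-1 subunit, at -1.87 ± 0.20 (7.09e-07). Only Egr2 had a larger log2 fold change in size than Arc among these 20. At 24 h 7 were called lower and 0 higher, against 0.0724% of all genes called lower, with a median of -0.56 against 0.01, and the 4 with the smallest p were Dusp1, a MAP kinase phosphatase, at -1.38, the antiproliferative Btg2 at -1.19, Fos at -1.37 and Ier2 at -1.39 (edgeR adjusted p = 6.33e-05, 6.33e-05, 8.74e-05 and 0.000115). At 2 weeks edgeR called 0 of the 20 and DESeq2 0, with 2 at an unadjusted p under 0.05 and a median of -0.05. In NAc, Fos (-1.15 ± 0.19, SE, edgeR adjusted p = 0.00201) and Btg2 (-0.56 ± 0.13, SE, edgeR adjusted p = 0.0205) were called lower under chronic morphine, against 0.908% of all genes. At 24 h edgeR called Fos lower (-1.05 ± 0.18, SE, edgeR adjusted p = 0.0176), against 0.0598% of all genes. DESeq2 also called the zinc finger factor Klf4 higher then (0.58, adjusted p = 0.0338), which edgeR did not (0.58, edgeR adjusted p = 0.145). The list's median in NAc was -0.36, 0.01 and 0.35 at the 3 stages, and at 2 weeks edgeR and DESeq2 called 0, with 2 at an unadjusted p under 0.05.

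**Figure D5:**
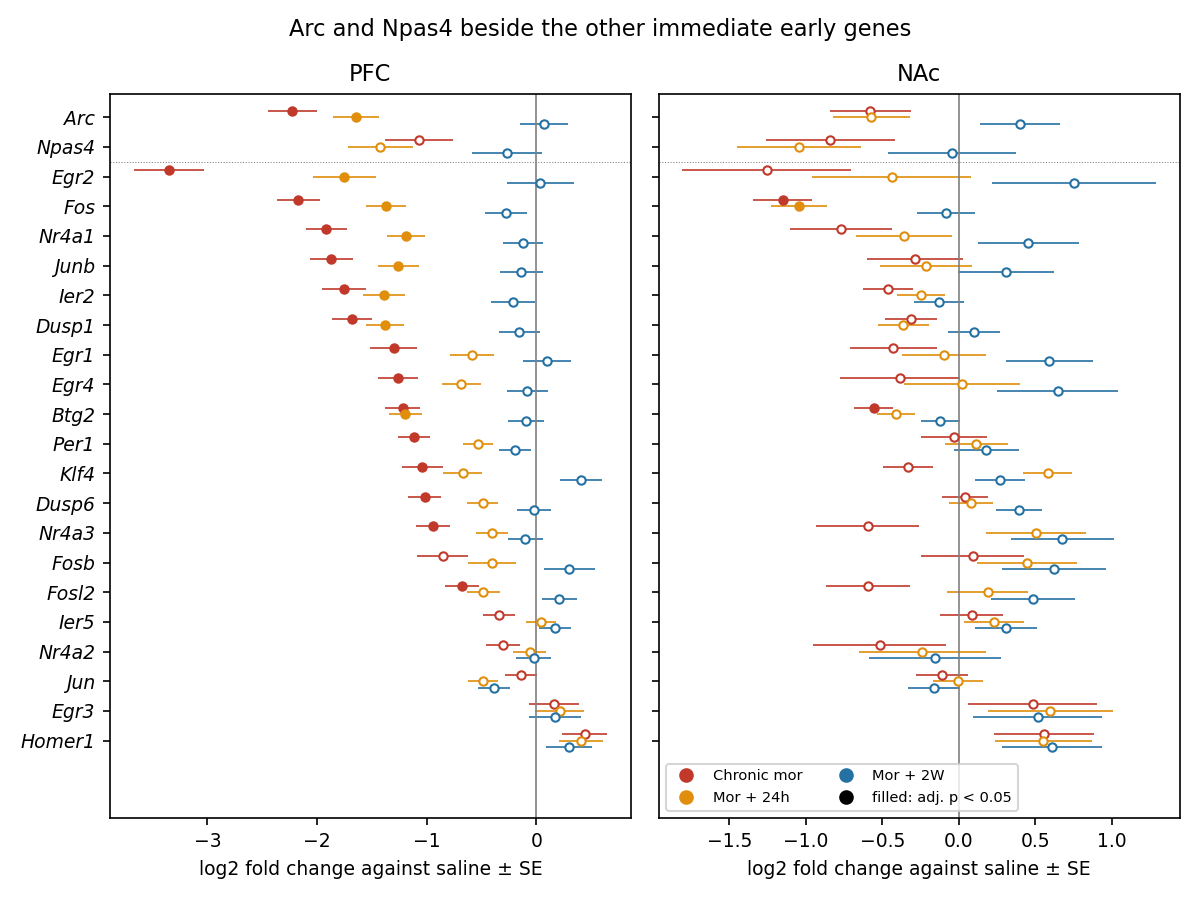
Log2 fold change against saline with its SE for Arc, Npas4 and 20 other immediate early genes in PFC and NAc at each stage. The 20 are ordered by the chronic PFC value, and Npas4 and Arc are set above them, outside that order. Filled points have an edgeR adjusted p under 0.05. In PFC, 14 of the 20 are called lower under chronic morphine, 7 at 24 h and 0 at 2 weeks.

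Lists of genes upstream and downstream of the pair held no called gene, but calls were rare among all genes too: edgeR called 0.417% in PFC and 1.69% in NAc in either direction under chronic morphine, and 0.0779% and 0.163% at 24 h. Pooled over all genes and the 6 comparisons, 8.30% of edgeR tests gave an unadjusted p under 0.05. Of 17 genes of the signalling path from synapse to nucleus (receptors, kinases and the transcription factors named above), edgeR and DESeq2 called 0 against saline at any stage in either region, with 9 tests (8.82%) at an unadjusted p under 0.05. Their median log2 fold change under chronic morphine was 0.10 in PFC and 0.22 in NAc, against 0.01 and -0.01 over all genes tested. Of 12 described partners of the ARC protein, among them AMPA receptor subunits and endocytic proteins, both tools called 0, with 5 of 72 tests (6.94%) at an unadjusted p under 0.05 and chronic medians of 0.09 in both regions. The NPAS4 partners and paralogs (6 genes, 5 of them tested in PFC) also had 0 calls by both tools, with 1 of 33 tests (3.03%) at an unadjusted p under 0.05 and chronic medians of 0.02 in PFC. For 5 described targets of NPAS4 both tools called 0 too, with 4 of 30 tests (13.3%) at an unadjusted p under 0.05 and chronic medians of -0.04 in PFC and 0.29 in NAc. In PFC under chronic morphine the 5 targets were at -0.04 ± 0.11 for the neurotrophin Bdnf, -0.27 ± 0.08 for the kinase Plk2, -0.08 ± 0.10 for the ubiquitin ligase Mdm2, 0.25 ± 0.45 for the synaptotagmin Syt10 and 0.58 ± 0.18 for the pentraxin Nptx2 (log2, SE, edgeR adjusted p = 0.981, 0.201, 0.938, 0.961 and 0.3).

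The genes most like each member were ranked by Pearson r. Over the log2 CPM of the 30 PFC libraries, as a description, the 5 most like Arc among 12880 genes were Dusp1 (Pearson r = 0.97), Nr4a1 (0.97), Trib1 (0.97), Junb (0.96) and Ier2 (0.96), with Npas4 25th at 0.82. The 5 most like Npas4 in PFC were Dusp1 (0.83), Arc (0.82), Ier2 (0.81), Nr4a1 (0.79) and Phlda1 (0.79). In NAc, over 32 libraries, Arc was most like Dusp1 (0.90), Nr4a1 (0.89), Npas4 (0.86), Egr1 (0.86) and Arl4d (0.85), and Npas4 most like Junb (0.91), Nr4a1 (0.86), Arc (0.86), Egr2 (0.85) and Chsy1 (0.85). Once the treatment by sex means were removed, Arc was most like Gpr3 (0.90), Egr2 (0.88) and Nr4a1 (0.88) in PFC and Dusp1 (0.84), Syt12 (0.82) and Mettl23 (0.82) in NAc. Npas4 was then most like Chrm4 (0.81) and Lzts1 (0.80) in PFC, a muscarinic receptor and a synaptic scaffold, neither of them in the list of early genes, with Arc 94th at 0.66. In NAc it was most like Erf (0.90), Crybg3 (0.90) and Junb (0.89), with Arc 976th at 0.75. All these libraries share treatment, punch and depth with the member they are set against.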

How the data were processed

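The values are raw read counts per gene in 62 mouse libraries (30 PFC, 32 NAc), whole numbers in 1 table deposited by the authors. The submitters' processing notes name FastQC, cutadapt, STAR, RSEM, Trimmomatic and HISAT2 and the builds GRCm38 and Rnor_6.0 without roles, and the counting program and its use of strand are not given in the sources used here. Rows for reads of no gene stayed out of library sizes. Gene models and exon lengths came from GENCODE M21 (GRCm38). The members and gene lists were chosen with earlier results of these data known.

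Each region was fitted with edgeR 4.0.16 (R 4.3.3, limma 3.58.1): TMM, filterByExpr, 8 cells of treatment by sex, quasi-likelihood tests of contrasts averaged over the sexes, with Benjamini-Hochberg adjustment over all genes tested and calls at 0.05. Differences between regions came from 1 fit of 16 cells. SE is the log2 fold change divided by the square root of F. CPM and log2 CPM (prior count 2) used the normalization over 62 libraries, and the ratio a pseudocount of 0.5. All mouse labels give 1 batch. Named genes were the 5 most alike by r and the 3 by deviations (mean log2 CPM of at least 1), and of each list all called genes where at most 4 were called, otherwise the 4 with the smallest p. The 5 NPAS4 targets, Klf4, Slc17a7 and Neurod2 fall outside this rule and were added after their values were seen. One gene that this rule names is not reported here. Correlations with marker sums were added after seeing the data.

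The fits were repeated with DESeq2 1.42.0, with size factors from medians of ratios, without the filter on low counts, with 2 surrogate variables (sva 3.50.0), with other designs, with a neuron marker score and without each library in turn. On simulated counts for chronic morphine against saline, edgeR recovered 76 of 100 genes changed by 1 on the log2 scale in PFC (17966 genes) and 91 of 100 in NAc (18382 genes), and 94 and 95 of 100 changed by 2. Of the genes called there, 5.56% in PFC and 4.62% in NAc were false by edgeR, against 14.7% and 11.7% by DESeq2. These are shares of all calls of each tool. In PFC DESeq2 called 204 genes, 30 of them false, and edgeR 180, 10 of them false. In NAc DESeq2 called 214, 25 of them false, and edgeR 195, 9 of them false. The false share among genes called by DESeq2 and not by edgeR was not counted and can be much higher than that of all DESeq2 calls. The planned promoter search was not run, since the promoter table used here holds rat windows. The rat table was not analysed here.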

Additional observations from a re-analysis of the deposited data

How the results depend on the processing

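The falls of Arc in PFC kept their direction and call under every setting run and without each library in turn. Their values ran from -2.48 to -2.10 on the log2 scale under chronic morphine and from -1.76 to -1.52 at 24 h. The lower levels in NAc were called in all 62 fits that left out 1 library. Npas4 was closer to the threshold. Its chronic difference in PFC was called by DESeq2 (-1.08) and with the marker score (-1.39), and its 24 h difference by DESeq2 (-1.44), without the filter on low counts (-1.43), with size factors from medians of ratios (-1.44), with 2 surrogate variables (-1.42) and the marker score (-1.68). In NAc, 2 surrogate variables gave calls for Arc (-0.75 chronic, -0.78 at 24 h) and Npas4 (-1.35, -1.43), and the marker score for Npas4 (-1.26, -1.38). Values near 0 changed sign. At 2 weeks these were Arc in PFC with 2 surrogate variables (-0.046, females -0.052, male minus female 0.012), Npas4 in PFC with the marker score (0.050, females 0.28, male minus female -0.45) or the state covariate (0.24), Npas4 in NAc with treatment plus sex (0.15), treatment alone (0.085) or the state covariate (0.29), and Npas4 in NAc males with 2 surrogate variables (-0.11) or the marker score (-0.027). From chronic morphine to 24 h, Arc in NAc was at -0.025 with 2 surrogate variables, -0.067 with the marker score, -0.11 with treatment plus sex and -0.061 with the state covariate, and in 24 h females at -0.26 with 2 surrogate variables and -0.14 with the marker score. The cause was not tested. The covariate for the high or low state and the fits without numbers 27 or 10 were chosen after seeing the data.

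As a percentage of the genes tested in each region, calls under chronic morphine in PFC (0.417%) came to 0.974% by DESeq2, 0.724% with 2 surrogate variables, 0.262% with treatment plus sex and 0.200% with the state covariate. At 24 h (0.0779%) DESeq2 gave 0.256% and 2 surrogate variables 0.301%. At 2 weeks (0.00557%, which is 1 gene) DESeq2 gave 0.0668%, the state covariate 0.0111%, and the fits without the filter, with 2 surrogate variables, with treatment plus sex and with treatment alone 0%. In NAc the chronic share (1.69%) was 1.01% without the filter, 3.74% by DESeq2, 4.81% with 2 surrogate variables, 3.596% with the marker score, 0.936% with treatment plus sex, 0.849% with treatment alone and 0.18% with the state covariate. The 24 h share (0.163%) was 0.0762% without the filter and with the state covariate, 0.908% by DESeq2, 1.197% with 2 surrogate variables, 0.370% with the marker score and 0.0870% with treatment plus sex. The 2-week share (0.00544%, 1 gene) was 0.223% by DESeq2, 0.0653% with 2 surrogate variables, 0.0490% with the marker score, 0.0435% with treatment plus sex, 0.0598% with treatment alone and 0.0816% with the state covariate.

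Leaving out 1 library at a time gave 0.256 to 0.991%, 0.0612 to 0.167% and 0 to 0.00557% of genes called in PFC at the 3 stages, and 0.653% (without number 27) to 3.08%, 0.0163 to 0.267% and 0.00544 to 0.0272% in NAc. Npas4 in PFC ranged from -1.42 to -0.82 under chronic morphine, from -1.57 to -1.29 at 24 h and from -0.61 to 0.00064 between them. At 2 weeks in PFC, Arc ranged from -0.035 to 0.19 (females -0.030 to 0.43, males -0.17 to 0.074) and male minus female for Npas4 from -0.17 to 0.26. In NAc, Npas4 at 2 weeks ranged from -0.20 to 0.11, Arc in 2-week females from -0.091 to 0.55, 24 h against chronic from -0.22 to 0.13 for Arc and -0.52 to 0.014 for Npas4, chronic males from -0.33 to 0.17 and -0.74 to 0.0065, and 24 h females from -0.34 to 0.49 and -0.88 to 0.057. The ratio of Npas4 to Arc ranged from 0.86 to 1.21 under chronic morphine in PFC and from -0.68 to -0.34 at 24 h in NAc, where the adjusted exact p was 0.033 without saline number 6.

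The chronic difference between regions for Arc was 1.65 by DESeq2, 1.73 with the replicate block (edgeR adjusted p = 0.0322) and 1.66 without both libraries numbered 10, each called, and ranged from 1.51 to 1.84 over libraries left out, with Npas4 from -0.019 to 0.61. PFC and NAc libraries of 1 number deviated together with a median r of 0.185 over 30 pairs (0.0122 to 0.353, 24 over 0.1, 17 best matched by their own number). Other pairs of the same treatment had a median r of -0.028. Deviations of Arc and of Npas4 from their group means correlated over the 30 pairs at r = 0.60 and 0.55. The labels do not say that a number is an animal. The replicate block changed no other call. The lowest count of Npas4 was 39, in NAc 24 h male number 23, at 0.848 CPM in a library of 42104184 gene counts.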
